A study of Mus musculus with 6 samples.

Results

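The integrated stress response is the program by which cells slow general protein synthesis and turn on repair genes when amino acids run short, when unfolded proteins build up in the endoplasmic reticulum, or when heme or viral sensors are triggered. Kinases that sense these states phosphorylate the translation initiation factor eIF2, which lowers most protein synthesis but favors translation of the mRNA of the transcription factor Atf4. Atf4, often as a dimer with a member of the C/EBP family, then raises genes for amino acid uptake and synthesis, further transcription factors, and feedback proteins that end the response. In cultured myoblasts, the progenitors that fuse into muscle fibers, both the eIF2 kinases and Trib3 have been studied for their effect on survival and differentiation.

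This program is described here by the transcription factors Atf4, Atf5, Atf3, Ddit3 (which encodes CHOP), Cebpb and Cebpg, the stress cofactor Nupr1, and the feedback genes Trib3 and Ppp1r15a. They are 9 of the 47069 genes listed in the count table. They were named as members of the pathway and were selected because they were higher with PSB-KD107 in these same libraries, so their differences between the groups are given as a description, without a test.

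The libraries were made from myoblasts of mdx mice, a mouse model of Duchenne muscular dystrophy that lacks dystrophin, and all groups carry this mutation. Muscle stem cells were sorted by FACS from muscle as cells without Sca-1, CD45, CD31 and CD11b and with Itgb1 and Itga7. The methods of the study give a medium with serum and FGF2 for growth and a low-serum medium for differentiation. They do not say which was used for the cells that were sequenced. One group received vehicle (DMSO in aqueous buffer) and the other received 10 µM PSB-KD107, a synthetic agonist of the receptor Gpr18, and the comparison asks how the agonist alters the transcriptome. The sample records give 2 days of treatment and name the compound PSB-KD-1, whereas the methods of the study give an overnight treatment with PSB-KD107. There were 3 libraries per group, from cells of different mice according to the methods, and the table numbers them 1, 2 and 4 in both groups. The total count per library ranged from 30917613 to 48756794, at which 3 counts correspond to 0.0596 to 0.0962 CPM (counts scaled to a common library size), a limit set by counting error alone.

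The 9 genes were higher with PSB-KD107 than with vehicle in the group means, with a median difference of 1.19 on the log2 scale (9 of 9 passed the filter on low counts). The median over all 14165 genes tested was -0.00074, with 7066 genes higher and 7099 lower. In 8 of the 9 genes every PSB-KD107 library lay above every vehicle library, which was the case for 9.2% of all genes tested. edgeR's quasi-likelihood test called 0 of the 9 genes and 0.0% of all genes after Benjamini-Hochberg adjustment, and DESeq2 called 5 of the 9 (Atf5, Ddit3, Cebpb, Trib3 and Nupr1) and 2.96% of the 13829 genes to which it gave an adjusted p-value. At an unadjusted p-value under 0.05 in edgeR there were 8 of the 9 genes, beside 6.47% of all genes in the same direction. Because the genes were selected on this contrast, nothing is read from these counts. Below, values per library are TMM-normalized CPM in the order 1, 2 and 4, errors of means are SDs over 3 libraries, and errors of log2 fold changes are standard errors of the edgeR fit.

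Atf4 (ENSMUSG00000042406, chr15:80255184-80257541 in GRCm38, plus strand) encodes the central transcription factor of the response. Its mRNA was at 218, 242 and 254 CPM with vehicle and at 451, 427.5 and 276.5 CPM with PSB-KD107, or 238 ± 18.2 against 385 ± 94.8. This gave a log2 fold change of 0.69 ± 0.20. The groups did not overlap, but PSB-KD107 library 4 lay close to the vehicle libraries, at 1.09 times the highest of them. Atf4 activity is set mainly by translation, and neither its protein nor phosphorylated eIF2 was measured in these libraries.

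Atf5 (ENSMUSG00000038539, chr7:44812256-44816658, minus strand) encodes a related factor whose mRNA is likewise translated preferentially when eIF2 is phosphorylated. It was at 53.0, 71.5 and 59.0 CPM with vehicle and at 169.9, 201 and 190.2 CPM with PSB-KD107. Between the groups the log2 fold change was 1.61 ± 0.14, and the lowest treated library was 2.38 times the highest vehicle library. The treated libraries lay close together, with an SD of 0.12 in log2 CPM beside a median of 0.28 over all genes tested. Exons of Atf5 share 82 bases with the gene Il4i1 on the opposite strand, which had a log2 fold change of 0.14 ± 0.13.

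Atf3 (ENSMUSG00000026628, chr1:191170296-191218039, minus strand) encodes a rapidly induced stress factor that acts mostly as a repressor. It was at 12.9, 15.8 and 14.2 CPM with vehicle and at 50.9, 28.0 and 18.6 CPM with PSB-KD107. Atf3 had a log2 fold change of 1.19 ± 0.37. The groups did not overlap, although the treated libraries differed from each other by 2.74 times. Without PSB-KD107 library 1 the log2 fold change was 0.69, and without PSB-KD107 library 4 it was 1.46.

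Ddit3 (ENSMUSG00000025408, chr10:127290774-127296288, plus strand) encodes CHOP, a C/EBP-related factor that dimerizes with other C/EBP proteins and is linked to cell death under lasting stress. It was at 9.06, 12.03 and 11.4 CPM with vehicle and at 81.1, 47.5 and 47.7 CPM with PSB-KD107. Ddit3 had a log2 fold change of 2.44 ± 0.26, and the ratio of the means was 5.43. The lowest treated library was 3.95 times the highest vehicle library, and library 1 was the highest of the treated libraries. Exons of Ddit3 share 68 bases with the opposite-strand gene Mars, which had a log2 fold change of 0.37 ± 0.20, and 13 bases with Gm4189, which was at or under 0.50 CPM in each library. A second annotated Ddit3 entry overlaps 105 of its exon bases and was not analysed here.

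The C/EBP partners showed smaller differences. Cebpb (ENSMUSG00000056501, chr2:167688915-167690418, plus strand), a factor of stress, inflammation and fat cell differentiation that is also expressed in muscle stem cells, was at 20.9, 17.2 and 17.3 CPM with vehicle and at 45.8, 31.8 and 44.1 CPM with PSB-KD107. For Cebpb the log2 fold change was 1.13 ± 0.18. The groups did not overlap, and the lowest treated library was 1.52 times the highest vehicle library. Exons of Cebpb share 312 of 1504 bases with the opposite-strand gene Tmem189, which was at 106 to 185 CPM, far more reads than Cebpb itself, and had a log2 fold change of 0.20 ± 0.27. As the strand setting of the counting is not given in the sources used here, the part of these reads in the Cebpb counts was not tested.

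Cebpg (ENSMUSG00000056216, chr7:35046422-35056573, minus strand) encodes a short C/EBP protein that lacks an activation domain and serves as a dimer partner of Atf4. It was at 31.0, 32.3 and 39.0 CPM with vehicle and at 46.0, 47.8 and 58.3 CPM with PSB-KD107. The log2 fold change of 0.57 ± 0.15 was the smallest of the 9 genes. Even so, the groups did not overlap, since the spread within each group was narrow, with a highest-to-lowest ratio of 1.26 with vehicle and 1.27 with PSB-KD107.

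Nupr1 (ENSMUSG00000030717, chr7:126623249-126630861, minus strand) encodes a small chromatin-associated stress protein. It was at 5.84, 13 and 10.8 CPM with vehicle and at 21.9, 43.2 and 48.4 CPM with PSB-KD107. The log2 fold change was 1.94 ± 0.41. The groups did not overlap, but both were wide, with a highest-to-lowest ratio of 2.23 with vehicle and 2.21 with PSB-KD107. Here the libraries numbered 1 were the lowest in both groups, the reverse of the order seen for Trib3.

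Trib3 (ENSMUSG00000032715, chr2:152337422-152344032, minus strand), a pseudokinase that binds Atf4 and lowers its activity and that has also been described as an inhibitor of the kinase Akt, had the highest fold change of the 9 genes. It was at 4.44, 2.49 and 2.58 CPM with vehicle, from 174, 87 and 83 counts, and at 56.4, 36.6 and 34.8 CPM with PSB-KD107, from 2837, 1142 and 1266 counts. The log2 fold change was 3.75 ± 0.34, which ranked 39 among the 14165 genes tested. The lowest treated library was 7.85 times the highest vehicle library. Library 1 was the highest in both groups, and the ratio of a treated library to the vehicle mean was 4.15, 3.53 and 3.46 on the log2 scale.

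Ppp1r15a (ENSMUSG00000040435, chr7:45522916-45526268, minus strand) encodes GADD34, the stress-induced subunit that directs a phosphatase to eIF2 and so reverses its phosphorylation. It was at 50.03, 83.7 and 76.7 CPM with vehicle and at 109.7, 135 and 75.8 CPM with PSB-KD107. The log2 fold change was 0.61 ± 0.27. This was the member whose groups overlapped, because PSB-KD107 library 4 was at 0.91 times the highest vehicle library.

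**Figure D1:**
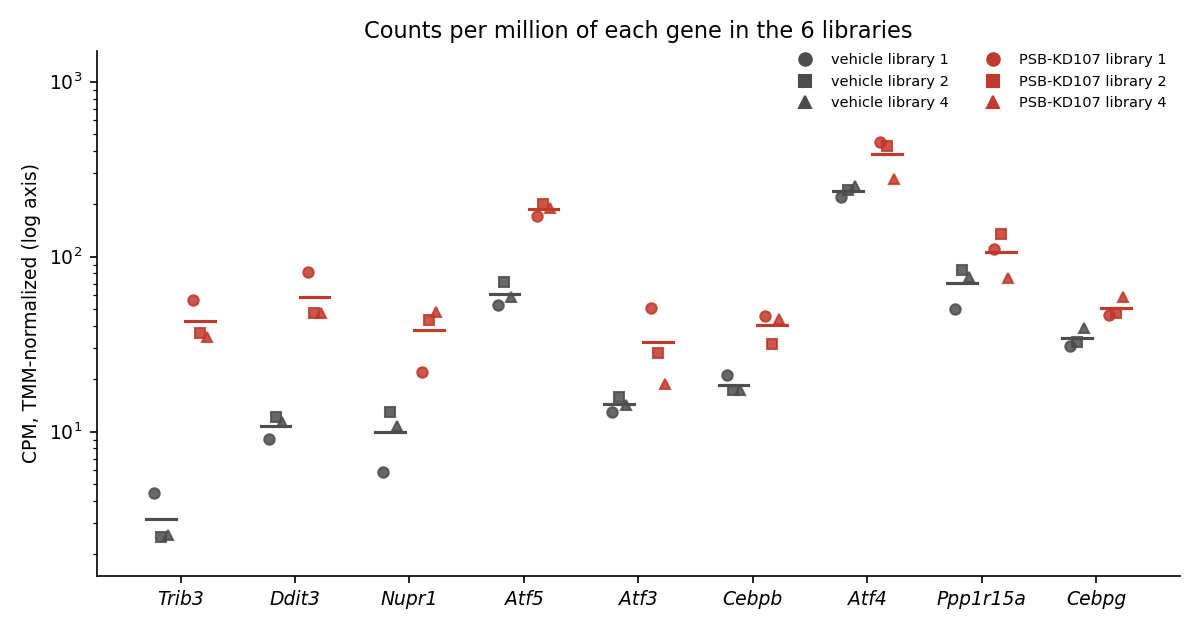
TMM-normalized CPM (log axis) of the 9 genes in the 3 vehicle libraries (grey) and the 3 PSB-KD107 libraries (red), with a symbol for each library number and a line at the group mean, ordered by the ratio of the means. Trib3 stands farthest apart between the groups (3.17 against 42.6 CPM in the means), and Ppp1r15a is the gene whose groups overlap.

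The treated libraries did not rank alike for all 9 genes. PSB-KD107 library 1 was the highest for Atf4, Atf3, Ddit3, Cebpb and Trib3, library 2 for Atf5 and Ppp1r15a, and library 4 for Cebpg and Nupr1. Library 4 was the lowest for Atf4, Atf3, Ppp1r15a and Trib3, and for Atf4, Atf3 and Ppp1r15a its log2 ratio to the vehicle mean was 0.22, 0.38 and 0.11. For Nupr1, Atf5 and Cebpg the same library had log2 ratios of 2.29, 1.64 and 0.77. The median log2 ratio over the 9 genes was 1.31 in library 1, 0.98 in library 2 and 1.25 in library 4.

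**Figure D2:**
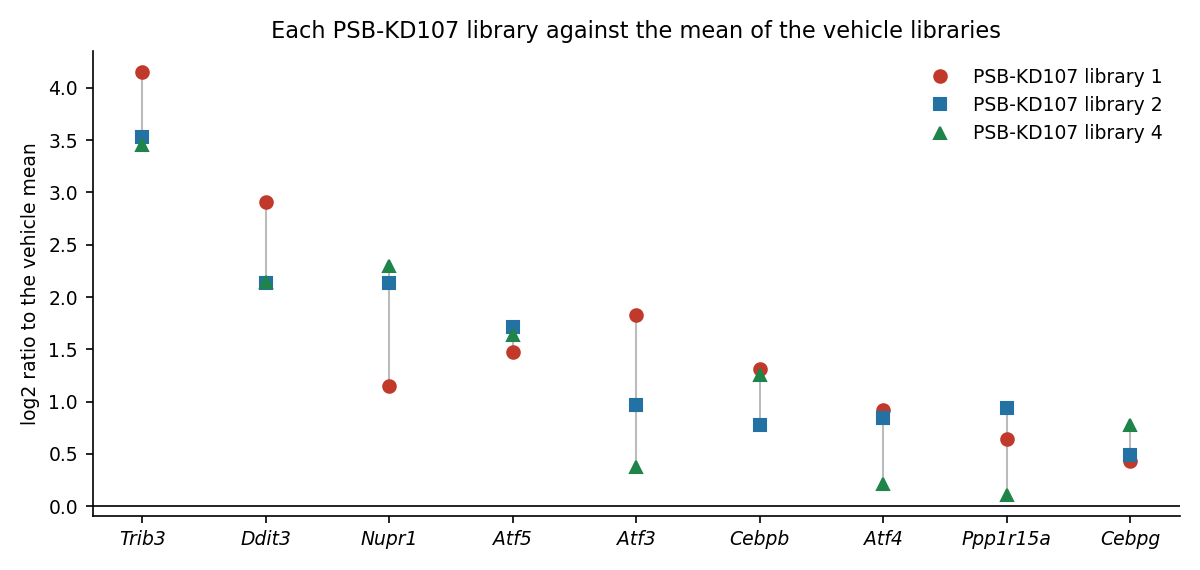
Log2 ratio of each PSB-KD107 library to the mean of the 3 vehicle libraries for the 9 genes, with the line joining the lowest and highest library. Each of the 27 ratios lies above 0, from 0.11 (Ppp1r15a, library 4) to 4.15 (Trib3, library 1), and library 4 is the lowest point for Atf4, Atf3, Ppp1r15a and Trib3.

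To compare levels between genes, CPM were divided by the length of all annotated exons of a gene in kilobases. On this scale Atf4 was the most abundant of the 9 mRNAs with vehicle, at 100.9 ± 7.72 CPM per kilobase, which was above 97.0% of the genes tested. It was followed by Atf5 (30.7 ± 4.72), Ppp1r15a (23.9 ± 6.05), Cebpb (12.3 ± 1.40), Atf3 (6.64 ± 0.69), Ddit3 (6.31 ± 0.91), Cebpg (6.07 ± 0.77), Nupr1 (3.93 ± 1.46) and Trib3 (1.49 ± 0.52). Among the vehicle libraries, the neighbors in this order overlapped between Atf5 and Ppp1r15a, between Atf3 and Ddit3, and between Ddit3 and Cebpg, whereas Atf4, Cebpb, Nupr1 and Trib3 were apart from each of their neighbors.

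With PSB-KD107, Atf4 (163 ± 40.2 CPM per kilobase) and Atf5 (93.8 ± 7.88) were still the highest, and their libraries did not overlap each other or the gene below. The order then ran Ppp1r15a (36.3 ± 10.1), Ddit3 (34.3 ± 11.3), Cebpb (27.0 ± 5.09), Trib3 (20.1 ± 5.62), Atf3 (15.1 ± 7.72), Nupr1 (15.1 ± 5.60) and Cebpg (9.02 ± 1.18), and each of these overlapped its neighbor. Trib3 went from the 30.3 to the 82.3 percentile of all genes tested, and Ddit3 from the 57.2 to the 89.8 percentile, whereas Atf4 went from the 97.0 to the 98.3 percentile, all by exon length.

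**Figure D3:**
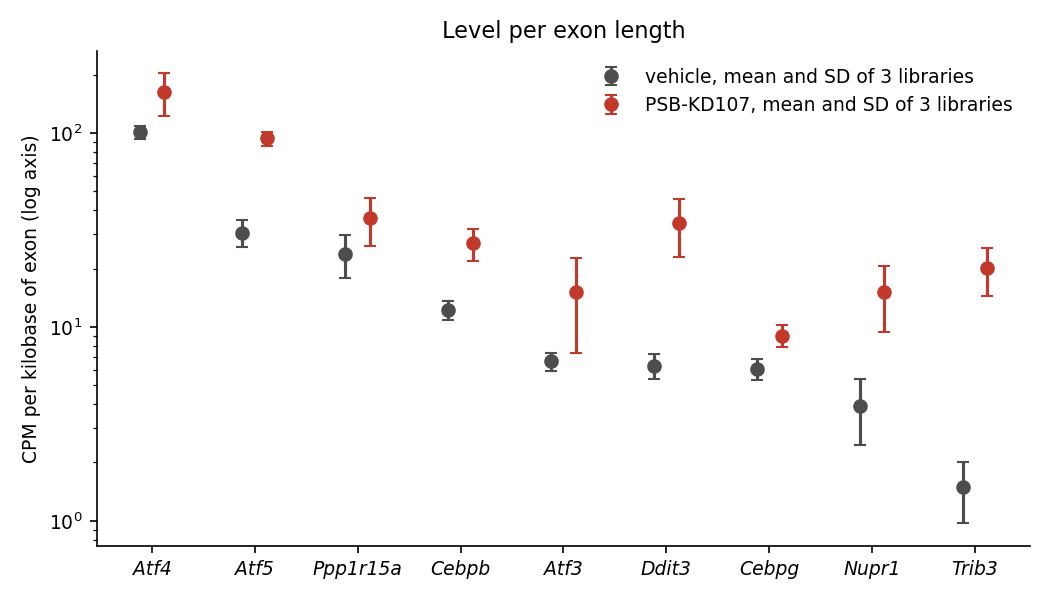
CPM per kilobase of annotated exon (log axis) of the 9 genes, as mean and SD of 3 vehicle libraries (grey) and 3 PSB-KD107 libraries (red), in the order of the vehicle levels. Atf4 and Atf5 are the highest in both groups, and Trib3 goes from the lowest level with vehicle (1.49) to above Atf3, Nupr1 and Cebpg with PSB-KD107 (20.1), whereas by coding length it is the lowest in both groups.

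The ratio of CHOP to its dimer partners was also taken within each library. The level of Ddit3 relative to Cebpb, per exon length, was 0.38, 0.61 and 0.58 with vehicle and 1.56, 1.31 and 0.95 with PSB-KD107. Relative to Cebpg, Ddit3 was at 0.96, 1.22 and 0.95 with vehicle and at 5.78, 3.27 and 2.68 with PSB-KD107. Trib3, the inhibitor, was at 0.015 ± 0.0065 of the level of Atf4 with vehicle and at 0.12 ± 0.025 with PSB-KD107. All these ratios were apart between the groups, whereas that of Atf3 to Atf4 (0.061 to 0.072 with vehicle, 0.072 to 0.12 with PSB-KD107) overlapped. The ratios are built from genes selected on this contrast and follow from the fold changes given above, so nothing further is read from their separation. The order of levels and the size of these ratios depend on the length used. By coding length, Cebpg with vehicle was at 75.8 CPM per kilobase, in place 2 of the 9 genes and not 7, because its 5621 annotated exon bases hold only 450 coding bases. Trib3 was the lowest of the 9 genes by coding length in both groups (2.98 CPM per kilobase with vehicle and 40.1 with PSB-KD107), so its higher place with PSB-KD107 holds for exon length alone. By coding length, Ddit3 was at 1.05 ± 0.25 of Cebpb with vehicle and 2.55 ± 0.61 with PSB-KD107, and at 0.28 ± 0.042 and 1.06 ± 0.45 of Cebpg.

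The promoters of the 9 genes were searched for 3 motifs, in RefSeq windows of GRCm38.p6 that run from 250 bases before to 50 bases after the transcription start. The C/EBP-ATF core TGATGNAA is the composite element that Atf4 binds with a C/EBP partner, TGACGTCA is the cAMP response element bound by the CREB and ATF family, and the ER stress element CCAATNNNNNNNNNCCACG is bound by Atf6. Both strands were searched. The C/EBP-ATF core occurred in 3 of the 9 genes (Atf3, Trib3 and Nupr1), in 9 of 29 Atf4 target genes with a window, and in 3.97% of all 32851 windows. The cAMP response element occurred in Ppp1r15a alone of the 9 genes and in 1.79% of all windows, and the ER stress element in none of the 9 and in 0.119% of all windows. A gene was counted if any of its windows matched (the 9 genes had 10 windows), whereas the shares are over single windows. The share over all genes was not taken, so the counts of genes are not directly comparable with these shares. The stretches around the matches are shown because they hold the letters that Atf4 and its relatives are known to bind. The match is in capitals, which for the C/EBP-ATF core is the reverse complement of the letters given. All are on the minus strand and are written 5′ to 3′.
Atf3, chr1:191183391-191183488: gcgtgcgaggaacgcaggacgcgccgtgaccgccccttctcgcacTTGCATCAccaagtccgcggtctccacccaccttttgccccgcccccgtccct
Nupr1, chr7:126625528-126625625: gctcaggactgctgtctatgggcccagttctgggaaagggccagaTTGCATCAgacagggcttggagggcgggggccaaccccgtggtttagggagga
Trib3, chr2:152344028-152344057: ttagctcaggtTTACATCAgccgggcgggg
Ppp1r15a, chr7:45526269-45526325: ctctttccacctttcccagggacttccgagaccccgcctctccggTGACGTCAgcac
Counted from the first transcribed base as 1, the match lay at -110 to -103 in both Atf3 and Nupr1, at 15 to 22 in Trib3 and at -12 to -5 in Ppp1r15a. No match of 1 motif overlapped a match of another, and in Atf3 and Nupr1 the RefSeq start lies inside the longer gene of the GENCODE annotation. In Trib3 the RefSeq start lies upstream of the GENCODE gene, whose 5′ end is at 152344032. By that annotation the Trib3 match (152344039-152344046) lies before the transcript and not inside it. These are matches of letters in one annotated window per start, binding was not measured, and elements outside the window were not searched.

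The known target genes of Atf4 were next described from a list of 35 genes, all of which were tested. In all, 34 were higher and 1 (Gpt2) was lower with PSB-KD107 in the fitted fold change, with a median of 0.75 on the log2 scale and a range from -0.10 to 4.57. edgeR called 0 of the 35 after adjustment (smallest adjusted p = 0.0738), and DESeq2 called 19, all higher, beside 2.96% of all genes in either direction. At an unadjusted p-value under 0.05 in edgeR, 27 were higher and 0 were lower, beside 6.47% higher and 2.93% lower over all genes. In 26 of the 35 every treated library lay above every vehicle library, beside 9.2% of all genes, and in 0 every treated library lay below, beside 6.59% of all genes. The list was written with earlier results of these libraries known and is no independent evidence of its direction.

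By the smallest p-values, the leading target genes were 3 of amino acid synthesis and supply, a tRNA synthetase and a lipoprotein receptor. Aldh18a1, the first enzyme of proline synthesis from glutamate, was at 38.5, 40.5 and 35.4 CPM with vehicle and at 100.3, 91.0 and 85.5 CPM with PSB-KD107, with a log2 fold change of 1.27 ± 0.11 and an adjusted p of 0.0738 in edgeR. Slc1a4, a carrier of serine and other neutral amino acids, was at 18.5 ± 1.12 CPM with vehicle and 50.6 ± 6.43 CPM with PSB-KD107. Sars, which charges tRNA with serine, was at 136 ± 10.1 CPM with vehicle and 269 ± 18.5 CPM with PSB-KD107. In each of these genes every treated library was above every vehicle library. Psph, the last enzyme of serine synthesis, was at 9.93 ± 0.43 and 29.3 ± 5.60 CPM. Vldlr, the very low density lipoprotein receptor, was at 9.02 ± 3.29 and 40.9 ± 0.43 CPM.

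In 4 target genes, named here after their values were seen, the highest treated library was over 4 times the lowest. Slc7a11, the cystine carrier, had the highest log2 fold change of the list (4.57 ± 1.23), with 5.15, 1.26 and 0.84 CPM in the vehicle libraries and 139, 21.8 and 13.1 CPM in the treated libraries. Gdf15, a secreted stress cytokine, was at 2.91, 5.81 and 6.82 CPM with vehicle and at 26.9, 27.5 and 6.58 CPM with PSB-KD107, so library 4 lay within the vehicle range. Cth, an enzyme of cysteine synthesis, was at 2.09, 1.03 and 1.55 CPM with vehicle and at 14.7, 2.85 and 5.75 CPM with PSB-KD107. In contrast to Gdf15, library 4 was the highest treated library for Stc2, a secreted glycoprotein. Stc2 was at 12.1, 16.3 and 9.77 CPM with vehicle and at 17.2, 25.2 and 75.6 CPM with PSB-KD107. Over the 35 target genes, library 4 was the lowest of the treated libraries in 20 genes (57.1%) and the highest in 3 (8.57%), whereas over all genes tested it was the lowest in 37.3% and the highest in 35.4%. This is a description of these libraries, and of the 9 genes themselves library 4 was the lowest in 4.

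The mRNAs of the sensors and the machinery upstream of Atf4 had small fold changes apart from Eif2ak2. Of 14 genes for the eIF2 kinases, their regulators, eIF2 and its exchange factor eIF2B, 10 had a higher and 4 a lower mean (list median 0.05 on the log2 scale). Before adjustment, 1 higher and 1 lower gene had a p-value under 0.05 in edgeR, close to the shares of 6.47% and 2.93% over all genes. After adjustment edgeR called 0 of the 14. DESeq2 called 0 of the 13 to which it gave an adjusted p-value, and it gave none to Eif2ak2. The higher gene was Eif2s2, a subunit of eIF2, with a log2 fold change of 0.26 ± 0.09 (adjusted p = 0.464). The lower gene was Eif2ak1, the heme-regulated kinase, with -0.37 ± 0.14 (adjusted p = 0.491). Leaving out vehicle library 1, 2 or 4 made the count of higher genes 0, and the list median was -0.0095 without PSB-KD107 library 1. Without these vehicle libraries the count over all genes in either direction was 1697, 677 and 683, beside 1331 with all libraries. Eif2ak3 (PERK) and Eif2ak4 (GCN2), the sensors of unfolded proteins and of uncharged tRNA, are named after their values were seen and had log2 fold changes of 0.05 and 0.12. Eif2ak2 (PKR), the sensor of double-stranded RNA, also named after its values were seen, was at 11.3 to 13.4 CPM with vehicle, at 15.6 and 12.6 CPM in PSB-KD107 libraries 1 and 2, and at 153 CPM in library 4. Its log2 fold change of 2.29 ± 1.00 therefore came from 1 library, the same in which Atf4, Atf3 and Ppp1r15a were nearest to vehicle, and what moved it was not tested.

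The genes listed as relatives of the 9 genes were split between higher and lower. They were taken from the Tribbles, Ppp1r15, Nupr, C/EBP and ATF families, except Cebpz (log2 fold change -0.25), which shares only the C/EBP name. Of these 18 genes, called paralogs here, 14 were tested, 8 of them higher and 6 lower, and their median was 0.02 on the log2 scale. Cebpe, Batf, Batf2 and Batf3 did not pass the filter on low counts. The paralog at an unadjusted p-value under 0.05 in edgeR was Cebpd, a stress-induced C/EBP factor, at 4.06, 5.44 and 4.90 CPM with vehicle and at 16.2, 8.15 and 10.9 CPM with PSB-KD107. A count of 1 among 14 is close to the 6.47% of all genes. Cebpd had a log2 fold change of 1.30 ± 0.30 (adjusted p = 0.264 in edgeR), and DESeq2 called it (adjusted p = 0.00537), as it did 2.96% of all genes. The other Tribbles genes had log2 fold changes of 0.70 ± 0.34 (Trib1, adjusted p = 0.604) and 0.01 ± 0.57 (Trib2, adjusted p = 0.997) in edgeR, beside 3.75 for Trib3. Ppp1r15b, the constant counterpart of Ppp1r15a, had -0.04 ± 0.26 (adjusted p = 0.971), and Nupr1l had -0.73 ± 0.38 (adjusted p = 0.620) from 12 to 23 counts per library. Without PSB-KD107 library 2 the count of 1 was 2, while the count over all genes in either direction went from 1331 to 1783. The list median was -0.017 without PSB-KD107 library 4 and -0.0018 without vehicle library 2. Whether a member differed from its paralog was not tested.

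The other branches of the unfolded protein response, which run through Atf6 and through Xbp1, had smaller fold changes. Of 19 genes, 17 had a higher and 2 a lower mean, the list median was 0.26 on the log2 scale and the highest value was 0.89. Before adjustment, edgeR gave a p-value under 0.05 to 5 higher and 0 lower genes, beside 6.47% and 2.93% of all genes. After adjustment edgeR called 0, and DESeq2 called Herpud1 alone, a count close to its 2.96% of all genes. In 8 of the 19 every treated library lay above every vehicle library, beside 9.2% of all genes. In 0 every treated library lay below, beside 6.59% of all genes. Herpud1, which acts in the removal of misfolded proteins, was at 109, 106 and 96.3 CPM with vehicle and at 163, 142 and 169 CPM with PSB-KD107, with a log2 fold change of 0.61 ± 0.10 (edgeR adjusted p = 0.184). Hspa5, the chaperone BiP, was at 844, 757.5 and 700.4 CPM with vehicle and at 1219, 972.5 and 1026 CPM with PSB-KD107 (log2 fold change 0.48 ± 0.14, edgeR adjusted p = 0.373). In both genes the groups did not overlap. Manf, Hsp90b1 and Dnajb11, a secreted protective factor and 2 chaperones, had log2 fold changes of 0.48, 0.34 and 0.26. The transcription factors Atf6 and Xbp1 themselves had 0.14 and 0.27 and are named after their values were seen. Without vehicle library 2 or vehicle library 4 the count of 5 was 2, and without PSB-KD107 library 2 it was 8. The count over all genes in either direction moved the same way, from 1331 to 677, 683 and 1783.

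Of 6 genes tied to cell death downstream of CHOP, 3 had a higher and 3 a lower mean (list median 0.05 on the log2 scale). The 3 lower genes, named after their values were seen, were Bbc3 (-0.07), Pmaip1 (-0.25) and Bcl2 (-0.46). The list was not sorted by whether a gene promotes or opposes cell death, so its split and median give no direction for cell death. Before adjustment, edgeR gave a p-value under 0.05 to 2 higher and 0 lower genes, beside 6.47% and 2.93% of all genes. After adjustment edgeR called 0, and DESeq2 called 1 of the 6, beside 2.96% of all genes. That gene was Ero1l, an oxidase of the endoplasmic reticulum, at 26.3, 14.4 and 13.1 CPM with vehicle and at 94.8, 28.6 and 238 CPM with PSB-KD107, a log2 fold change of 2.75 ± 0.77 (edgeR adjusted p = 0.365). Bcl2l11, which encodes the death protein Bim, had 0.71 ± 0.26 (edgeR adjusted p = 0.478), and its treated library 2 lay within the vehicle range. The count of 2 was 1 without PSB-KD107 library 1, without vehicle library 2 and without vehicle library 4. In these fits the count over all genes in either direction was 1027, 677 and 683, beside 1331 with all libraries. The list median was -0.12 without PSB-KD107 library 2.

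**Figure D4:**
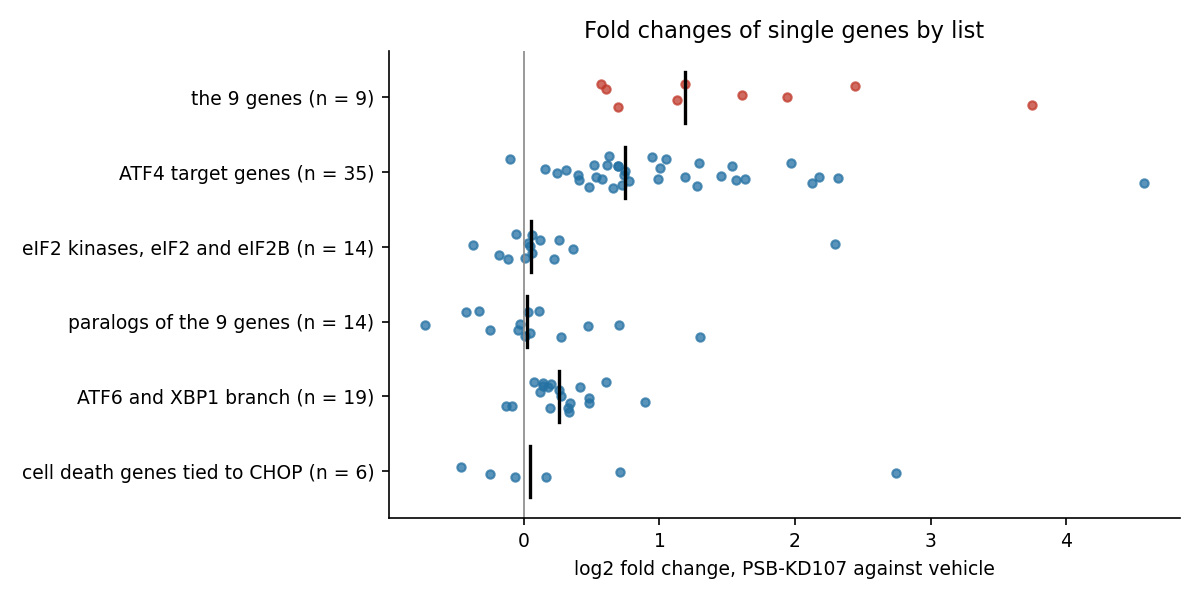
Log2 fold changes of PSB-KD107 against vehicle, 1 point for each gene tested, for the 9 genes (red) and 5 lists of related genes (blue), with a black line at the median of each list and a grey line at 0. The 35 Atf4 target genes lie mostly to the right of 0 (median 0.75), whereas the medians of the upstream eIF2 genes (0.05) and of the paralogs (0.02) lie next to that of all genes.

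Genes beside the 9 in the genome were looked at to see whether whole neighborhoods moved. Of 18 nearest tested genes that did not overlap a member, 1 on each side, 7 were higher and 11 lower (median -0.04 on the log2 scale). The groups did not overlap in 2 of them upward (Mief1 and Apobr) and in 1 downward (Ube2v1), counts close to the shares of 9.2% and 6.59% over all genes. Apobr, a receptor for apolipoprotein B lying 34137 bases from Nupr1, had a log2 fold change of 3.38 ± 0.46, from 0.69, 0.92 and 0.90 CPM with vehicle to 9.90, 12.1 and 4.21 CPM with PSB-KD107 (unadjusted p = 0.000267 in edgeR's quasi-likelihood test). The 4 members on chromosome 7 (Cebpg, Atf5, Ppp1r15a and Nupr1) had different neighbors throughout.

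The pattern over the 6 libraries most like that of Trib3 was that of Anpep, the membrane aminopeptidase CD13, with a root-mean-square difference of 0.64 in log2 CPM centered on the vehicle mean. Apobr (0.71), Gpnmb (0.74), Mt1 (0.84) and AA467197 (0.85) followed. Gpnmb, a membrane glycoprotein, was at 10.9, 5.24 and 4.31 CPM with vehicle and at 268, 76.5 and 29.2 CPM with PSB-KD107, so that library 1 was the highest in both groups, as for Trib3. The genes most like Atf4 were much closer to it. Slc38a7, an amino acid carrier, differed by 0.071, Cstb, a protease inhibitor, by 0.075, Tpp1, a peptidase, by 0.077, Gm43737 by 0.084 and E430025E21Rik by 0.099. Tpp1 was at 82.4, 82.7 and 82.5 CPM with vehicle and at 151, 140.0 and 93.6 CPM with PSB-KD107, with library 4 nearest to vehicle, as for Atf4. No member of the 9 genes and none of the 35 target genes was among these 10. As the 10 were picked for likeness over these same 6 libraries, a shared order of libraries follows in part from the choice.

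Gpr18 itself, the receptor of the compound, had 0 counts in each of the 6 libraries, so it was not detectable at this depth, which allows a level of up to 0.0962 CPM in the shallowest library. The myoblast markers were present, with a summed level that overlapped between the groups, at 5888 to 6377 CPM with vehicle and 5827 to 5999 CPM with PSB-KD107. Markers of differentiated muscle were abundant in both groups, with 5 of 6 in the count table and 0 of them at 0. Their sum was lower with PSB-KD107, at 27270 to 30650 with vehicle against 21520 to 25500 CPM. Most of this sum was Myh3, the embryonic myosin, at 17160 to 18260 CPM with vehicle and 11840 to 14590 CPM with PSB-KD107. The sum therefore does not show each of these markers. Myog, another of them, was at 2042, 2203 and 2158 CPM with vehicle and at 1175, 1726 and 1661 CPM with PSB-KD107. Pax7, the stem cell factor, was at 68.8, 49.9 and 60.0 CPM with vehicle and at 34, 26.7 and 35.1 CPM with PSB-KD107. Myod1, also a myoblast marker, was at 515, 956 and 1060 CPM with vehicle and at 399, 765 and 523 CPM with PSB-KD107. Its groups overlapped, and its log2 fold change was -0.59 ± 0.35. Des, another myoblast marker, was at 3652, 2996 and 2784 CPM with vehicle and at 3932, 2904 and 3599 CPM with PSB-KD107, and its groups overlapped. The summed level of the myoblast markers therefore does not show the single markers. The part that the lower Pax7 and the lower sum of differentiated muscle markers have in the results was not tested. In such bulk libraries fewer cells of a type and less RNA per cell cannot be told apart. Markers of mesenchymal, endothelial, immune, and glial and mural cells summed to at most 10.6, 0.99, 6.56 and 6.88 CPM in any library.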

How the data were processed

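Poly(A) RNA of PSB-KD107- and vehicle-treated mdx myoblasts was selected and sequenced with a directional kit in paired-end mode, aligned by the authors with STAR 2.3.0 to mm10 through GenPipes, and deposited as raw counts per gene without normalization. The counting program, its annotation and its strand setting are not given in the sources used here. Of 47069 genes, 46574 had an entry in GENCODE M21 (GRCm38), used for names, exons and coordinates. The libraries numbered 4 could be given a group, but not 1 sample record. Counts were filtered with filterByExpr, scaled with TMM and tested with edgeR 4.0.16 (quasi-likelihood, Benjamini-Hochberg, threshold 0.05) in R 4.3.3. DESeq2 1.42.0, RLE factors, no filter, a block by library number, leaving out each library and coding length were alternatives, and scripts were tested on simulated data. Likeness used log2(CPM + 0.1). With 3 libraries against 3, an exact permutation test cannot go below 0.1. The 9 genes and all lists were chosen with earlier results of these data known. The genes named in each list were those with the smallest edgeR p-values among genes under 0.05 unadjusted (at most 5 higher), with all tested Tribbles, Ppp1r15 and Nupr genes, Gpr18, and the 5 genes most like Trib3 and Atf4. The methods name 3 mice, but no label ties a library to a mouse, so p-values measure the spread between these libraries.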

Additional observations from a re-analysis of the deposited data

How the results depend on the processing

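The log2 fold changes of the 9 genes kept their sign under each of 12 alternatives (108 values, 0 reversed), 1 of them chosen after seeing the data. The genes were selected as higher in these same libraries, so this was largely set in advance and nothing is read from it. Leaving out 1 library at a time gave log2 fold changes of 3.48 to 4.07 for Trib3, 2.12 to 2.57 for Ddit3 and 0.40 to 0.80 for Ppp1r15a. The number of genes called over all genes was 0, against 410 with DESeq2 and 8 with no filter on low counts (among them Atf5, Ddit3 and Trib3), and was 0 to 0 when 1 library was left out. Leaving out 1 library gave 25 to 31 Atf4 target genes at an unadjusted p-value under 0.05 (27 with all) with medians of 0.72 to 0.84 (0.84 without vehicle library 2), 2 to 8 genes of the Atf6 and Xbp1 branch (5 with all) with medians of 0.20 to 0.30, 1 to 2 cell death genes with medians of -0.12 (without PSB-KD107 library 2) to 0.21, 0 to 1 eIF2 genes (0 without any 1 vehicle library) with medians of -0.0095 (without PSB-KD107 library 1) to 0.077, and 1 to 2 paralogs with medians of -0.017 (without PSB-KD107 library 4) to 0.086, where the median was -0.0018 without vehicle library 2. Over all genes tested, 677 (without vehicle library 2) to 1783 (without PSB-KD107 library 2) were under 0.05 unadjusted in edgeR in either direction, beside 1331 with all libraries. The cause of these shifts was not tested.

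No label ties a library number to a mouse. Deviations from the group means over 14165 genes correlated at 0.63 for number 1 and 0.50 for number 2 but at -0.13 for number 4, so a pairing by number was not used, and vehicle library 4 correlated best with PSB-KD107 library 2 (0.64). With the replicate block over all libraries edgeR called 0 genes. At an unadjusted p-value under 0.05 it gave 8 higher genes of the Atf6 and Xbp1 branch, beside 1726 of all genes in either direction. Restricted to libraries 1 and 2, the replicate block called 2456 of 14400 genes. Among them were 9 of the 9 described, which were selected on this contrast, so nothing is read from that count. In this edgeR fit 4410 of the 14400 genes were at an unadjusted p-value under 0.05 in either direction. Beside this, the counts of higher genes were 13 of 19 for the Atf6 and Xbp1 branch, 4 of 6 for the cell death genes and 4 of 14 for the eIF2 genes. Without the block, a setting chosen after seeing the data, the same 4 libraries gave 0 calls. At an unadjusted p-value under 0.05 in edgeR they gave 1 gene of the Atf6 and Xbp1 branch and 0 cell death genes, beside 924 of all genes in either direction. Depth, at 30917613 counts or more per library, limits statements on genes near 3 counts, such as Gpr18.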
